A study of Mus musculus with 17 samples.

Results

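The endothelin, adrenomedullin and C-type natriuretic peptide systems were followed in newborn mouse testes and forebrain through 10 genes, out of the 55359 genes of the table. They were the rows whose Ensembl identifier belongs to Edn1, Edn3, Ednra, Ednrb, Adm, Calcrl, Ramp2, Nppc, Npr2 or Npr3 in the GENCODE mouse annotation, and each of the 10 was found. All 10 passed the filter on low counts in both organs. The genes were chosen with their changes from WT already known, so their values in mutant against WT tissue are given below as a description with no p-value. Levels between organs, and Ocn-/- against Ocn+/- pups, were not used in that choice and were tested.

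Each of these systems pairs small secreted peptides, cut from longer precursors, with receptors on nearby cells. Endothelins, encoded here by Edn1 and Edn3, act on the G-protein-coupled receptors of Ednra and Ednrb. Endothelin 1 is made largely by endothelial cells and contracts vascular smooth muscle, while endothelin 3 with Ednrb is best known for guiding neural crest cells. Adrenomedullin, from Adm, widens vessels and keeps endothelial junctions tight through a receptor built from the calcitonin-receptor-like receptor of Calcrl and the accessory protein of Ramp2, and low oxygen raises Adm transcription in many cell types. C-type natriuretic peptide, from Nppc, binds the guanylyl cyclase of Npr2, which makes cyclic GMP, whereas Npr3 encodes a receptor without a cyclase that takes natriuretic peptides up and clears them. In the gonads Nppc and Npr2 are known for holding oocytes in meiotic arrest, and Ednra for contraction of the cells around the seminiferous tubules.

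RNA was sequenced from male pups at postnatal day 1 of the OcnGK strain on a 129/SvEv background, in which osteocalcin (Ocn), a hormone secreted by bone, is deleted by homologous recombination. WT pups had WT mothers, whereas Ocn+/- and Ocn-/- pups both had Ocn-/- mothers, so that effects of the pup's own alleles, of the maternal alleles and of the litter cannot be told apart in any comparison with WT. Testes gave 2 WT, 3 Ocn+/- and 3 Ocn-/- libraries, and the forebrain, labelled hippocampus by the submitters, gave 3 of each. The study counts its samples as mice, so p-values measure the spread between mice, whose litters are not stated, nor whether both organs came from the same animals. For forebrain it gives fewer WT mice than there are WT libraries here, and does not say which was left out.

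Totals ran from 7302401 to 8289015 counts in testes and from 6518151 to 14621584 in forebrain. The lowest belonged to the forebrain WT 3, in which the ribosomal transcript Rn18s-rs5 took 8.5% and mitochondrially encoded genes took 5.34% of the counts, against 2.4% to 3.18% for the latter in the other forebrains. Fold changes and calls in forebrain that rest on this library are given with and without it. In testes the Ocn-/- 3 had the lowest sums of fibroblast markers (6586 against 8883 to 12388 CPM in the others) and macrophage markers (38.8 against 63.2 to 104.7) and the highest of Sertoli cell markers. Osteocalcin's own genes were too scarce to check the genotypes, with 0 to 5 expected counts of Bglap and 0 of Bglap2 in every library, which allows up to 3. Neuronal markers summed to 4580.1 to 5800.4 CPM (counts scaled to a common library size) in forebrain and 33.1 to 53.5 in testes, and Sertoli cell markers to 43.7 to 60.7 and 1344 to 1999 CPM. Levels below are CPM adjusted by edgeR's TMM factors within an organ, and changes are log2 fold changes with their standard error (SE). A gene passed the threshold when its Benjamini-Hochberg adjusted p, over all genes fitted in edgeR's quasi-likelihood model, was under 0.05.

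To show the DNA at which transcription of the 4 peptide genes begins, the stretches around their starts are given, from 250 bases before to 50 bases after the start annotated by RefSeq (sequences from its GRCm38.p6 release, each found once by exact match in GRCm39). Capitals mark matches, on either strand, to ACGTG, the core bound by hypoxia-inducible factors, to TGACG, a part of the cAMP response element, to TGANTCA, an AP-1 site, or to GATAA, the core bound by GATA factors. Edn1 lies at chr13:42454702-42455001 on the forward strand, Edn3 at chr2:174602162-174602461 on the forward strand, Adm at chr7:110226614-110226913 on the forward strand and Nppc at chr1:86598246-86598545 on the reverse strand.
Edn1: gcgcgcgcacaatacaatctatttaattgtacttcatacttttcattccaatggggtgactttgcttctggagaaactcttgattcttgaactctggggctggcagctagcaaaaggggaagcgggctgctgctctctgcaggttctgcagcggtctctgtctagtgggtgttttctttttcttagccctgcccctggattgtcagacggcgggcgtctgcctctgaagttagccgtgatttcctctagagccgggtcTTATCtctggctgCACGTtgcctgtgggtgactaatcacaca
Edn3: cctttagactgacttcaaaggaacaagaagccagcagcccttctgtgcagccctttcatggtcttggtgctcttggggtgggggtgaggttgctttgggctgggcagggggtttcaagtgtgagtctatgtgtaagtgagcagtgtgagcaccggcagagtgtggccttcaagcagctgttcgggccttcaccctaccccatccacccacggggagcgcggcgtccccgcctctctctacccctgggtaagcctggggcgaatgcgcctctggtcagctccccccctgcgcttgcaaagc
Adm: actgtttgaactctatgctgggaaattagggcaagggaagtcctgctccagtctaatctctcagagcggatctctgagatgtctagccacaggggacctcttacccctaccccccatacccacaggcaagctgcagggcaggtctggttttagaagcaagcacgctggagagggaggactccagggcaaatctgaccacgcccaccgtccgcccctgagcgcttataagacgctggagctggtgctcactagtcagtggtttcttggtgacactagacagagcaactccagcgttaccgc
Nppc: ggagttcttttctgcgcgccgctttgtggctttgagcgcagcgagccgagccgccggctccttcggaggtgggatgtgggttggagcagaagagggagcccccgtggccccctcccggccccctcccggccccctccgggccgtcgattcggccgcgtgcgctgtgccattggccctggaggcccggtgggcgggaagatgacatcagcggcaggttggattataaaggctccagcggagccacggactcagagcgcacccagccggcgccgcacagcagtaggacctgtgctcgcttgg
Edn1 held 1 match to GATAA and 1 to ACGTG, both on the reverse strand and beginning 9 and 22 bases after the RefSeq start, while Edn3, Adm and Nppc held no match. Over all 32841 windows of that length, 19.6% held ACGTG, 20.8% TGACG, 7.81% TGANTCA and 25.4% GATAA. Among the 5 receptor genes with a window in the table, Ednrb and Npr3 each held 1 TGACG. The windows differed in base composition, with 51.3% G and C for Edn1 and 69.3% for Nppc, against a median of 52.7% over all windows. What falls inside a window depends on the annotated start, which RefSeq places 210 bases downstream of the GENCODE start for Edn1 and 324 for Edn3, but 6 for Adm and for Nppc. For the matches in receptor genes the offset is 23 for Ednrb and -1189, that is upstream, for Npr3. A match describes letters and is not evidence of binding.

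Edn1 (ENSMUSG00000021367.9, chromosome 13, 42446301 to 42461466) was lower in mutant forebrain but not in mutant testes. In forebrain, the WT libraries held 2.29, 4.38 and 7.12 CPM, from 30, 38 and 40 counts. The Ocn+/- forebrains held 0.406, 1.01 and 1.55 CPM and the Ocn-/- forebrains 0.559, 0.871 and 2.03 CPM, from 6 to 27 counts. All 6 mutant forebrains lay below all 3 WT ones, and the WT values themselves spread over a wide range, with the library that stood apart at the top. The log2 fold change was -2.15 (SE 0.53) in Ocn+/- and -1.92 (SE 0.53) in Ocn-/- forebrain, both past the threshold, which 3.89% and 4.85% of all genes passed. Without the forebrain WT 3 the values were -1.72 (SE 0.56) and -1.49 (SE 0.55), neither past it, as 1.11% and 1.15% of genes then were. The call in Ocn+/- forebrain was also lost without WT 2 (-2.17), Ocn+/- 1 (-1.77) or Ocn+/- 2 (-2.16), and that in Ocn-/- forebrain without WT 2 (-1.94), Ocn-/- 1 (-1.61), Ocn-/- 2 (-1.75) or Ocn+/- 2 (-1.92).

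In testes, Edn1 was at 8.42 and 11.9 CPM in WT, 16.7, 11.2 and 17.7 in Ocn+/- and 12.2, 15.5 and 12.3 in Ocn-/- mice, from 65 to 129 counts. The mutant range reached down into the WT range, and the log2 fold changes of 0.58 (SE 0.26) and 0.39 (SE 0.26) did not pass the threshold, which 8.25% and 5.64% of all genes passed. The mean change of both mutant genotypes differed between testes and forebrain by 2.49 (SE 0.54) on the log2 scale, past the threshold of the joint fit, as were 2.96% of all genes in either direction and 1.24% in this one. No other member passed it. Leaving out testes WT 1 (2.26), testes WT 2 (2.76) or forebrain WT 3 (2.08) ended this call. Of the 50-base stretches of the Edn1 transcript, 15.8% also occur in another annotated gene, mostly Gm60910, a long non-coding RNA on the opposite strand. Whether the counting used strand is not stated, so reads of such overlapping partners cannot be told apart.

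**Figure D1:**
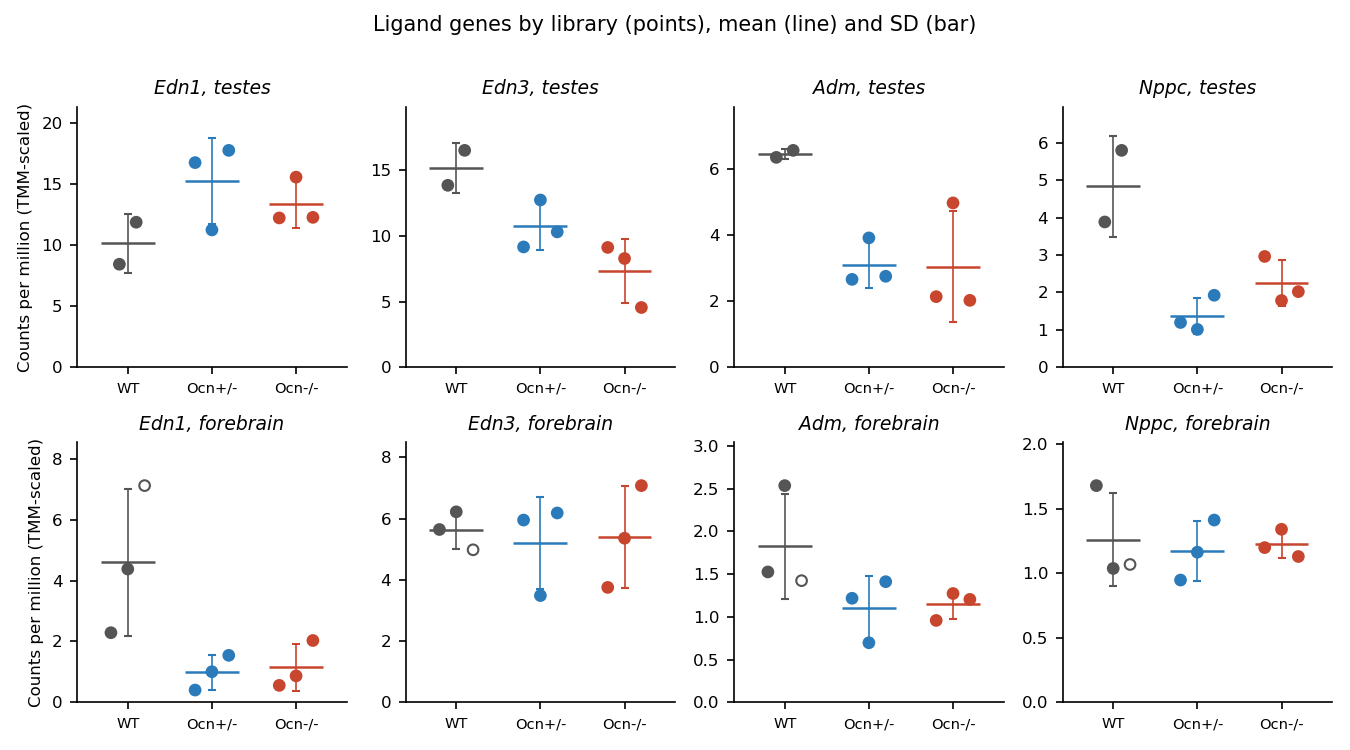
Level of the 4 ligand genes in every library, as CPM on axes that start at 0, with testes above and forebrain below. Points are libraries, lines are means and bars are SD. The open point is the forebrain WT 3. Edn1 in forebrain is at 2.29 CPM or more in WT and 2.03 or less in the mutants, while in testes the highest Edn1 values are in mutants.

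Edn3 (ENSMUSG00000027524.10, chromosome 2, 174602088 to 174625835) passed the threshold in testes and not in forebrain. It held 13.9 and 16.5 CPM in WT testes, 9.17, 12.7 and 10.3 in Ocn+/- and 9.13, 8.28 and 4.55 in Ocn-/- testes, from 36 to 131 counts. Every mutant testis lay below both WT testes, and every Ocn-/- testis below every Ocn+/- testis. Against WT the log2 fold change was -0.50 (SE 0.27) in Ocn+/- testes, short of the threshold, and -1.05 (SE 0.28) in Ocn-/- testes, past it. That call was lost without testes WT 1 (-1.16), WT 2 (-0.90), Ocn-/- 1 (-1.22), Ocn-/- 3 (-0.80) or Ocn+/- 3 (-1.05), and with only the 2 genotypes compared in the fit (-1.04). In forebrain, Edn3 was at 4.98 to 6.22 CPM in WT, 3.49 to 6.18 in Ocn+/- and 3.75 to 7.08 in Ocn-/- mice, with log2 fold changes of -0.11 (SE 0.26) and -0.06 (SE 0.26), the latter turning positive when libraries were scaled by size alone. The ratio of Edn1 to Edn3, each per kilobase of transcript, was 0.89 and 1.05 in WT testes and 1.29 to 3.95 in mutant testes, but 0.594, 1.03 and, in WT 3, 2.09 in WT forebrain and 0.0999 to 0.423 in mutant forebrain. The ratio lay above WT in every mutant testis and below WT in every mutant forebrain. It restates the changes of Edn1 and Edn3 given above, and how often other gene pairs show such an order was not counted.

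Neither endothelin receptor passed the threshold against WT in either organ. Ednra (ENSMUSG00000031616.8, chromosome 8, 78386590 to 78451552), which encodes the receptor that mediates vasoconstriction, held 334 and 308 CPM in WT testes, 260.2 to 314 in Ocn+/- and 291 to 314 in Ocn-/- testes. In forebrain it held 6.34 to 7.78, 5.64 to 6.97 and 8.04 to 8.2 CPM in WT, Ocn+/- and Ocn-/- mice. Of its 50-base stretches 35.7% also occur elsewhere, mostly in Gm45714 on the opposite strand, so its level carries the same doubt as that of Edn1. The 3 Ocn-/- forebrains sat above every other forebrain, and the log2 fold changes from WT were -0.20 (SE 0.19) in Ocn+/- and 0.18 (SE 0.19) in Ocn-/- mice. Ednrb (ENSMUSG00000022122.16, chromosome 14, 104052053 to 104081900), the receptor that binds both peptides alike, was at 30.1 and 30.03 CPM in WT testes and at 16 to 30.6 CPM in mutant testes. Its low value came from the Ocn-/- testis 3, and the others lay between 23.4 and 30.6 CPM. That library also held the lowest Edn3, Adm, Calcrl and Npr3 values of the 8 testes, and without it the log2 fold change in Ocn-/- testes went from -0.26 to -0.02 for Ednrb, from -0.34 to -0.15 for Calcrl and from -0.43 to -0.25 for Npr3. In forebrain Ednrb was the most even of the 4 endothelin genes against WT, with log2 fold changes of 0.03 (SE 0.10) and -0.02 (SE 0.10).

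Adm (ENSMUSG00000030790.16, chromosome 7, 110226858 to 110229027) was the one ligand whose mutant libraries lay below WT in both organs. Testes held 49 and 52 counts in WT, 20, 31 and 20 in Ocn+/- and 18, 39 and 16 in Ocn-/- mice, or 6.35 to 6.56, 2.66 to 3.91 and 2.02 to 4.97 CPM. Its log2 fold changes there, -1.05 (SE 0.41) and -1.09 (SE 0.41), did not pass the threshold, and without the Ocn-/- testis 2 the second was -1.63 and passed. Forebrain held 20, 22 and 8 counts in WT, 18, 9 and 21 in Ocn+/- and 12, 19 and 16 in Ocn-/- mice, which made 1.42 to 2.53 CPM in WT and 0.697 to 1.41 in the mutants. Of its 50-base stretches 14.8% also occur elsewhere, mostly in Gm72687 on the opposite strand. Raw counts in forebrain overlapped fully, and scaling for depth separated the lowest WT library, at 1.42 CPM, from the highest mutant, at 1.41, by next to nothing. The log2 fold changes of -0.71 (SE 0.42) and -0.67 (SE 0.42) were not past the threshold, nor were those without the forebrain WT 3, -0.83 (SE 0.46) and -0.79 (SE 0.46). The change in testes minus that in forebrain was -0.39 (SE 0.52), with a 95% interval from -1.40 to 0.62, which holds both an equal difference in the organs and one that is 2-fold larger in testes.

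Neither gene of the adrenomedullin receptor separated mutant from WT libraries. Calcrl (ENSMUSG00000059588.14, chromosome 2, 84160957 to 84255755) held 38.5 and 40.1 CPM in WT testes, 26.6, 38.9 and 28.2 in Ocn+/- and 39.4, 31.2 and 22.4 in Ocn-/- testes. The groups overlapped, with log2 fold changes of -0.33 (SE 0.22) and -0.34 (SE 0.22), neither past the threshold. In forebrain its values were 8.36 to 8.92 CPM in WT, 4.84 to 10.5 in Ocn+/- and 8.28 to 9.04 in Ocn-/- mice, the 2 extremes both being Ocn+/- libraries. Ramp2 (ENSMUSG00000001240.14, chromosome 11, 101136358 to 101150419) was at 25.7 and 28.2 CPM in WT testes and 22.9 to 30.5 in mutant testes, and at 16 to 18.1 and 14.7 to 20.7 CPM in WT and mutant forebrain. Its 4 log2 fold changes from WT lay between -0.04 and 0.17. Ramp2 is the least certain of the 10 genes, since 52.2% of its transcript's 50-base stretches also occur in another gene, mostly Vps25, which overlaps it on the same strand, and the share of reads given to each depends on the model used to count.

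Nppc (ENSMUSG00000026241.6, chromosome 1, 86594013 to 86598301) fell in Ocn+/- testes. Its counts were 30 and 46 in WT, 9, 8 and 14 in Ocn+/- and 25, 14 and 16 in Ocn-/- testes, or 3.89 to 5.8, 1.01 to 1.93 and 1.78 to 2.96 CPM. All 6 mutants lay below both WT testes, and the 2 mutant genotypes overlapped. The log2 fold change was -1.81 (SE 0.45) in Ocn+/- testes, past the threshold, and -1.09 (SE 0.43) in Ocn-/- testes, short of it. Without testes WT 1 (-2.06), WT 2 (-1.48) or Ocn+/- 1 (-1.72) the call was lost. In forebrain Nppc held 6 to 22 counts in WT and 14 to 21 in the mutants, or 1.04 to 1.68 and 0.947 to 1.41 CPM, and the log2 fold changes of -0.15 (SE 0.41) and -0.09 (SE 0.41) were small against their error.

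Of the natriuretic peptide receptors, the clearance receptor was also lower in mutant testes. Npr3 (ENSMUSG00000022206.8, chromosome 15, 11839982 to 11907373) held 68.8 and 73.2 CPM in WT, 49.1, 40.4 and 48 in Ocn+/- and 54.4, 64.9 and 39.2 in Ocn-/- testes, from 310 to 580 counts. No mutant testis reached the WT values, although the Ocn-/- testis 2 came close. The log2 fold change was -0.63 (SE 0.18) in Ocn+/- testes, past the threshold, and -0.43 (SE 0.17) in Ocn-/- testes, which of all alternatives run passed only without the Ocn-/- testis 2 (-0.60). In Ocn+/- testes the call was lost without WT 1 (-0.67), WT 2 (-0.57), Ocn-/- 1 (-0.62), Ocn+/- 1 (-0.68), Ocn+/- 2 (-0.53) or Ocn+/- 3 (-0.67), and with libraries scaled by size alone (-0.55). Npr2 (ENSMUSG00000028469.16, chromosome 4, 43631339 to 43651436), the signalling receptor, with 11.9% of its stretches shared, mostly with Gm12473 on the opposite strand, was at 61.2 and 68.1 CPM in WT, 70.1, 59.1 and 67.5 in Ocn+/- and 47.9, 53.1 and 48.1 in Ocn-/- testes. Here Ocn+/- testes shared the WT range and Ocn-/- testes lay below both, with log2 fold changes of 0.02 (SE 0.13) and -0.38 (SE 0.13), neither past the threshold. The ratio of Npr3 to Npr2 per kilobase was 1.62 and 1.70 in WT, 1.03 to 1.07 in Ocn+/- and 1.23 to 1.84 in Ocn-/- testes. In forebrain both genes were even, with log2 fold changes from -0.20 to -0.02 and overlapping groups.

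**Figure D2:**
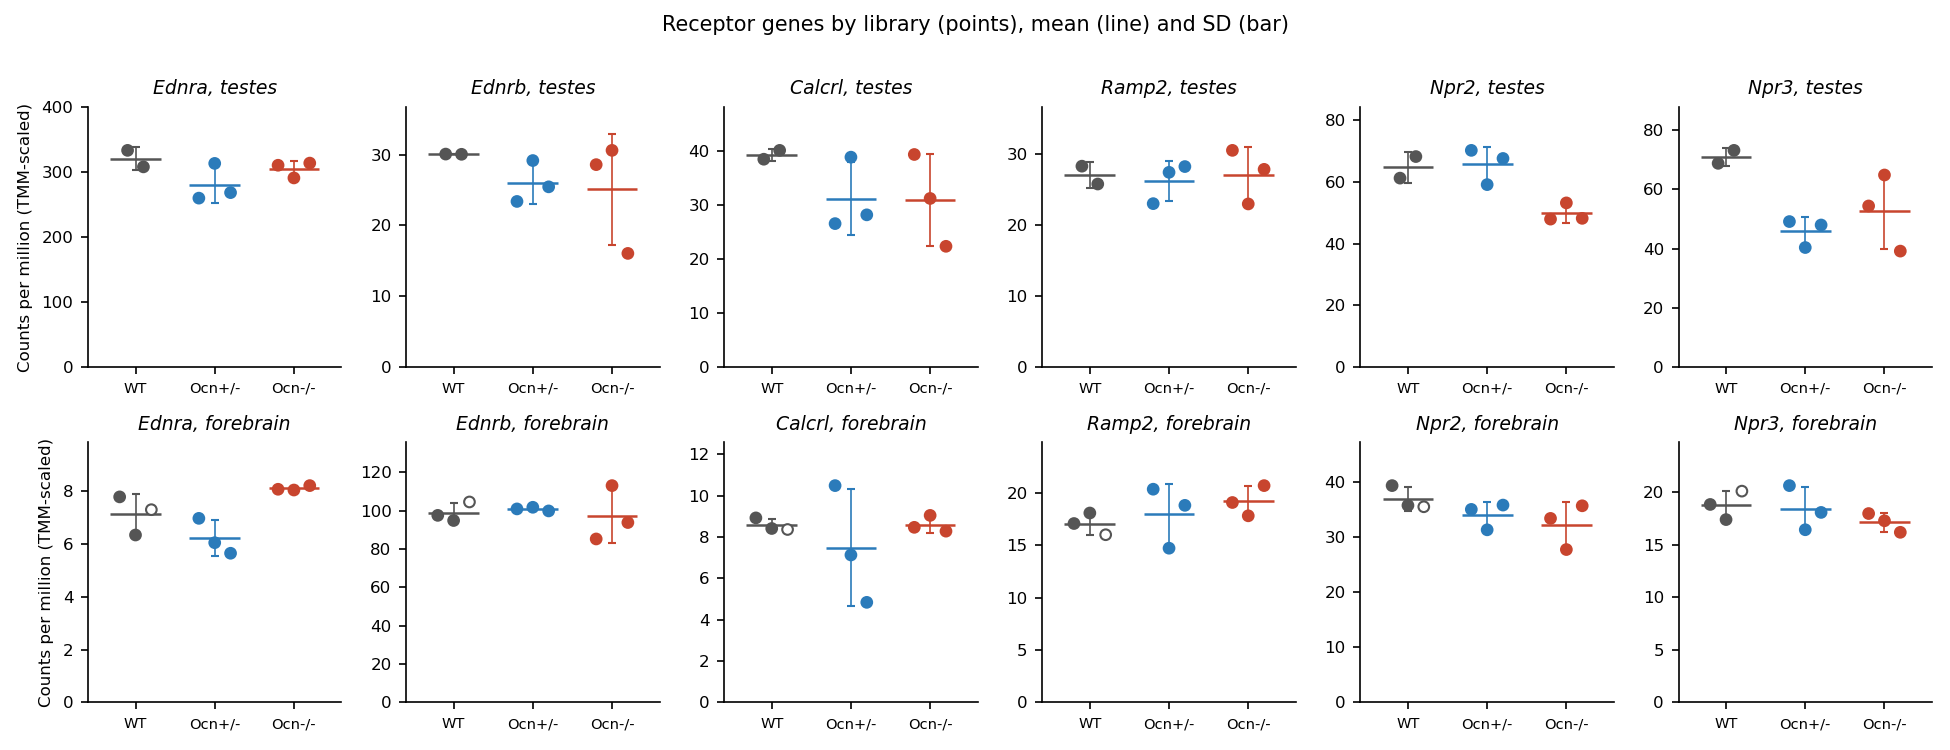
Level of the 6 receptor genes in every library, as CPM on axes that start at 0, with testes above and forebrain below. Points are libraries, lines are means and bars are SD, and the open point is the forebrain WT 3. Npr3 in testes is the panel in which all mutants lie below WT, at 64.9 CPM or less against 68.8 or more.

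By role, 3 of 4 ligand genes and 1 of 6 receptor genes had all mutant testes below both WT testes, an order that 13.6% of all genes showed. In forebrain 2 of 4 ligands and 0 of 6 receptors had all mutants below all WT libraries, an order shown by 8.57% of all genes. No member had all mutants above WT in either organ, as 12.5% and 6.85% of all genes did. Downward past the threshold were 2 and 1 of the 10 in Ocn+/- and Ocn-/- testes, beside 4.36% and 3.09% of all genes, and 1 in each mutant forebrain, beside 2.68% and 3.05%. Over the 10 genes the median log2 fold change was -0.27 and -0.36 in Ocn+/- and Ocn-/- testes, beside 0.01 and -0.01 over all genes tested, and -0.13 and -0.08 in forebrain, beside 0.01 and 0.01. In testes 8 of 10 genes had a negative value in each mutant genotype, and in forebrain 8 in Ocn+/- and 7 in Ocn-/- mice, but values near 0 changed sign with the scaling of libraries for Ramp2 and Ednra in testes and for Npr3, Edn3, Ednrb and Calcrl in forebrain. Without the forebrain WT 3 the values of the 8 members other than Edn1 and Adm lay between -0.23 and 0.19 there. The 2 mutant genotypes of an organ share its WT libraries, so a like sign in both is not counted as a repeat. Since these contrasts were known when the genes were chosen, the counts describe the set and test nothing.

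**Figure D3:**
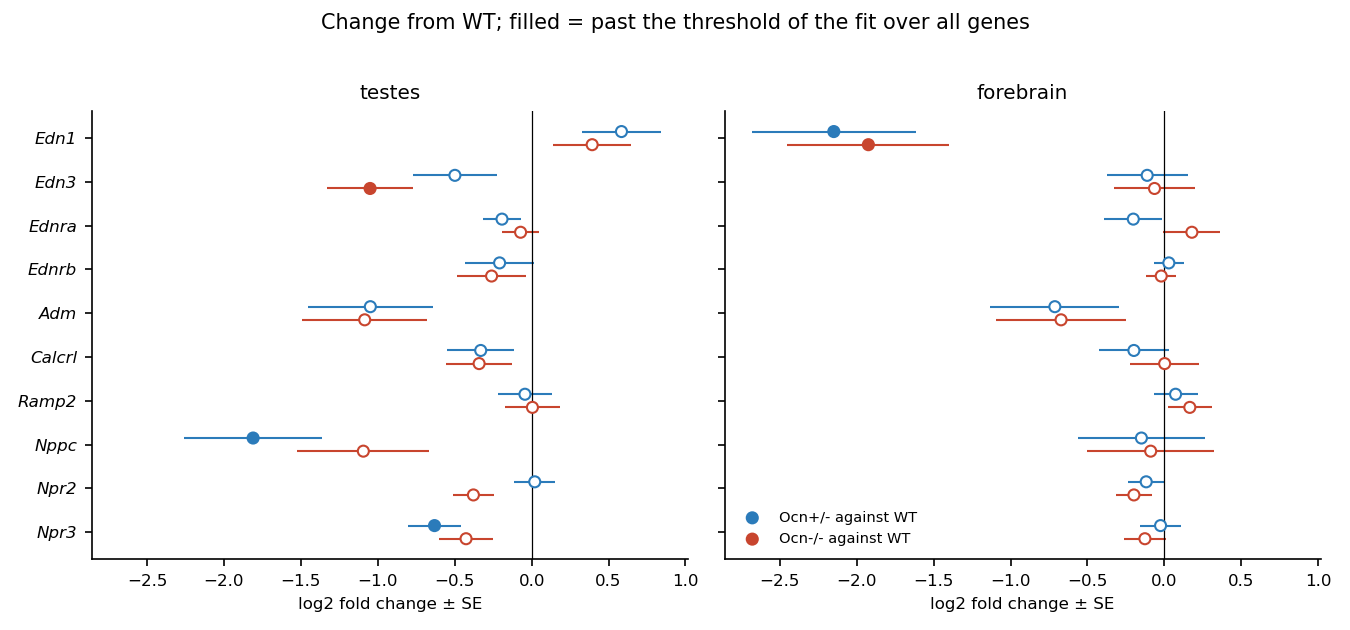
Log2 fold change from WT with its SE for the 10 genes, by organ and mutant genotype. Filled points passed the threshold of the fit over all genes, which were Nppc and Npr3 in Ocn+/- testes, Edn3 in Ocn-/- testes and Edn1 in both mutant forebrains. The Edn1 values are negative in forebrain and positive, short of the threshold, in testes.

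The pups of both mutant genotypes had Ocn-/- mothers, so the maternal genotype is the same on both sides of a comparison between them. Their fathers and litters are not stated, so effects of the pup's remaining allele cannot be told apart from theirs. Of the 10 genes, 0 passed the threshold between Ocn-/- and Ocn+/- testes in edgeR's quasi-likelihood test, as did 0% of all genes, and 0 passed between the forebrains, where 0.00622% of all genes did. DESeq2 and edgeR's likelihood ratio test also called 0 of the 10 in both organs, beside 0.440% and 0.361% of all genes in testes and 0.0311% by each in forebrain. An unadjusted p under 0.05 was found for 2 members in testes and 1 in forebrain, beside 11.5% and 3.20% of all genes. Npr2 was lower in each Ocn-/- testis than in each Ocn+/- testis, by -0.40 (SE 0.12, 95% interval -0.63 to -0.16, edgeR adjusted p = 0.305), and Edn3 by -0.55 (SE 0.26, interval -1.06 to -0.05, edgeR adjusted p = 0.43). Such an order was shown by 8.02% of all genes in testes. Ednra was higher in each Ocn-/- forebrain, by 0.38 (SE 0.18, interval 0.03 to 0.73, edgeR adjusted p = 0.999), an order that 3.65% of all genes showed. For Edn1 the difference was 0.22 in forebrain with an interval from -0.89 to 1.34, and for Nppc 0.72 in testes from -0.14 to 1.57, so that both no difference and a level 2-fold higher in Ocn-/- mice lie within these intervals.

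Between the organs all 10 genes differed in the joint fit of 17 libraries, 9 being higher in testes and 1 in forebrain, beside 84.4% of all genes that passed, 44.5% being higher in testes and 39.9% in forebrain, so that most genes at large pass this threshold too. Ednra had the highest difference of the 10, and Ednrb was the one gene higher in forebrain. Ednra was higher in testes by 5.08 (SE 0.07, edgeR adjusted p = 2.1e-26) on the log2 scale, at 1954 to 2622 counts per library against 41 to 120. Ednrb was higher in forebrain, with a log2 difference of -2.21 (SE 0.10, edgeR adjusted p = 3.64e-16). Per kilobase, Ednra exceeded Ednrb 5.34-fold to 11-fold in every testis, and Ednrb exceeded Ednra 18.9-fold to 31.6-fold in every forebrain. Edn1 was higher in testes by 2.56 (SE 0.25, edgeR adjusted p = 4.29e-09) as a mean over genotypes, but by 0.91 (SE 0.43, edgeR adjusted p = 0.0652) between the WT libraries alone, a comparison added after seeing the data in which 8 of the 10 members and 71.1% of all genes passed. Per kilobase, WT testes held 3.18 and 4.50 CPM of Edn1 and WT forebrains 1.08, 2.05 and, in WT 3, 3.38. This comparison was not fitted without the forebrain WT 3. Calcrl was higher by 1.71 (SE 0.13, edgeR adjusted p = 3.71e-11), Npr3 by 1.29 (SE 0.09, edgeR adjusted p = 8.91e-13) and Adm by 1.23 (SE 0.24, edgeR adjusted p = 4.08e-05). As means over genotypes the others differed by less, Nppc by 0.67 (SE 0.24, edgeR adjusted p = 0.012), Edn3 by 0.64 (SE 0.16, edgeR adjusted p = 0.000891), Npr2 by 0.46 (SE 0.07, edgeR adjusted p = 1.03e-06) and Ramp2 by 0.24 (SE 0.09, edgeR adjusted p = 0.0179). Between the WT libraries alone Nppc differed by 1.57 (SE 0.42, edgeR adjusted p = 0.00199) and Edn3 by 1.11 (SE 0.30, edgeR adjusted p = 0.00209), with Adm at 1.49 and Npr3 at 1.60. These are relative to a median over all genes of 0.09, which became 0.23 with upper quartile scaling and 0.40 with library size alone. Ramp2 lost its call without testes WT 1 (0.21) or forebrain Ocn+/- 2 (0.18), and Nppc without testes WT 2 (0.56), and between WT libraries alone Ramp2 was at 0.34 (SE 0.17, edgeR adjusted p = 0.079).

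Within an organ, levels of different genes can be ordered per kilobase of transcript, here over all genotypes and then in WT. Testes led with Ednra, at 37.1 ± 3.29 CPM per kilobase (SD, n = 8, all genotypes), clear of all others. Npr3 (16.5 ± 3.87), Npr2 (11.8 ± 1.74) and Ramp2 (11.4 ± 1.18) followed with overlapping ranges, then Calcrl (6.02 ± 1.27), Ednrb (5.87 ± 1.09) and Edn1 (4.99 ± 1.15), which also overlapped. Edn3 (2.72 ± 0.963), Adm (2.48 ± 1.17) and Nppc (2.18 ± 1.36) had the lowest means and overlapped each other, and each of them reached into the range of Edn1. In WT testes alone the 4 ligands lay together, with means from 3.84 (Edn1) to 4.10 (Nppc) and overlapping values. Forebrain led with Ednrb at 27.4 ± 2.22 (SD, n = 9), clear of the others, followed by Ramp2 (9.67 ± 1.05), Npr2 (8.62 ± 0.804) and Npr3 (6.84 ± 0.601), each overlapping its neighbour. Calcrl (1.87 ± 0.358), Edn3 (1.75 ± 0.376), Nppc (1.29 ± 0.236), Ednra (1.11 ± 0.15), Adm (1.08 ± 0.398) and Edn1 (1.06 ± 1.04) formed an overlapping low group. In WT forebrain alone Edn1 was at 1.08, 2.05 and 3.38, the last in WT 3, and spanned the WT values of Calcrl (1.90 to 2.03) and Edn3 (1.61 to 1.99). In both organs the 4 ligands lay in the lower part of the order, below Npr2, Npr3 and Ramp2 in their means.

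**Figure D4:**
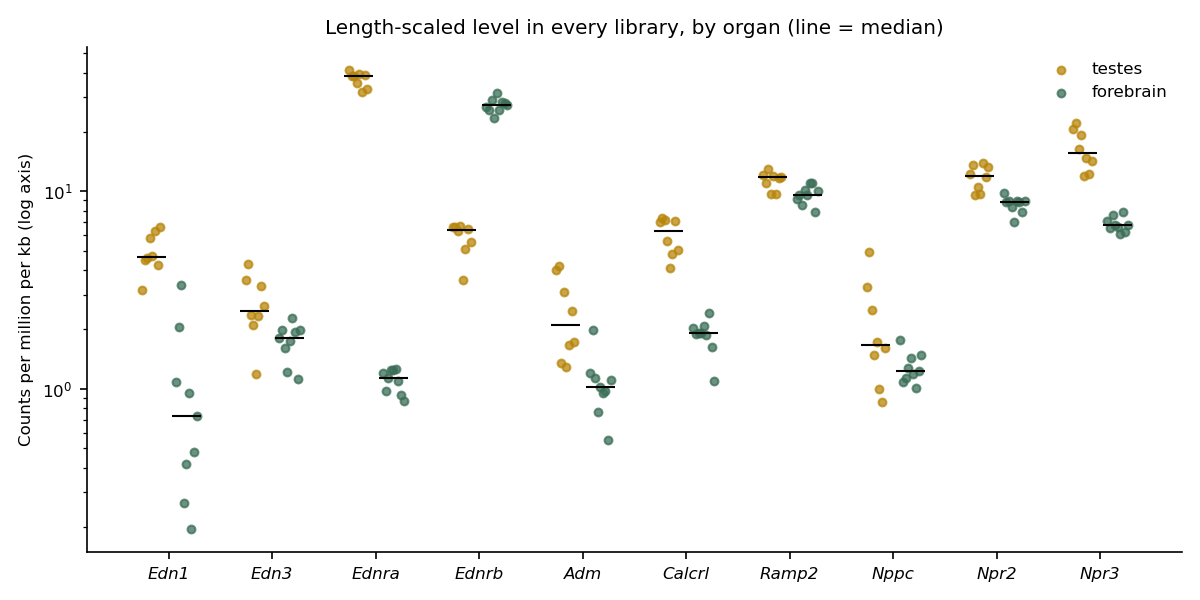
Level of the 10 genes per kilobase of canonical transcript in every library, on a log axis, with testes and forebrain side by side and a line at the median. Ednra is highest in testes and Ednrb in forebrain, and Edn1 in forebrain has the widest spread, from 0.194 to 3.38 CPM per kilobase.

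Other genes of the same systems, 22 in number, cover a further endothelin, processing and degrading enzymes, other calcitonin-family peptides and receptor partners, the cardiac natriuretic peptides with their receptor and enzymes, and the kinases and phosphodiesterase of cyclic GMP. Of these, 14 passed the filter in testes and 13 in forebrain, while Nppb had 0 counts in all 17 libraries, which allows up to 3 counts in each. In Ocn+/- testes 1 of the 14 passed the threshold, Mme, beside 8.25% of all genes. Mme, which encodes neprilysin, a protease that degrades natriuretic peptides and endothelins, fell from 492 and 448 CPM in WT to 317, 370 and 332 in Ocn+/- testes, a log2 fold change of -0.47 (SE 0.13, edgeR adjusted p = 0.0339, with values from -0.52 to -0.39 when single libraries were left out). The list of related genes was also written with earlier results of these data known, so this p-value is a description. Ocn-/- testes held 400.3, 498 and 436 CPM and covered the WT range, and the difference of the mutant genotypes, 0.39, had an edgeR adjusted p of 0.288. The call was lost without testes WT 1, WT 2, Ocn+/- 1 or Ocn+/- 3. DESeq2 called 2 of the 14 there, Mme and Furin, beside 9.83% of all genes. Furin, which encodes a protease that cuts peptide precursors, was named after its values were seen. Its log2 fold change in edgeR was 0.47 (SE 0.14), short of the threshold. In Ocn-/- testes 0 of the 14 passed in edgeR's quasi-likelihood test, beside 5.64% of all genes. An unadjusted p under 0.05 was found there for 2, as for 23% of all genes. DESeq2 called 0 in Ocn-/- testes, beside 7.76% of all genes. In forebrain 0 of the 13 passed in either mutant genotype, beside 3.89% and 4.85% of all genes. An unadjusted p under 0.05 was found there for 1 and 3, as for 20.3% and 21.7% of all genes. DESeq2 called 0 in Ocn+/- and 1, Ece2, in Ocn-/- forebrain, beside 5.57% and 6.90% of all genes.

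Markers of cell types and of the response to low oxygen were read in the same libraries, and in forebrain most of the cell type markers did not pass the threshold. Of 10 endothelial markers, 3 in Ocn+/- and 6 in Ocn-/- testes were past the threshold downward and 0 upward, beside 4.36% and 3.09% of all genes downward, and their summed level was 644 and 656 CPM in WT and 389 to 496 in mutant testes, with no marker at 0. In forebrain 2 (Pecam1 and Kdr) and 1 (Kdr) were past it downward, beside 2.68% and 3.05% of all genes, and 0 and 0 without the forebrain WT 3, when 1.11% and 1.15% of all genes were in either direction, and the sums of 210 to 239 CPM in WT and 179 to 252 in mutants overlapped. Mural and smooth muscle markers were past it downward for 1 and 4 of 9 in testes and for 1 (Abcc9) in each mutant forebrain, 0 without the forebrain WT 3, and their sums were 1318 and 1613 CPM in WT and 934 to 1319.7 in mutant testes, which overlapped. Without the Ocn-/- testis 3 the counts in Ocn+/- and Ocn-/- testes were 4 and 4 for endothelial and 3 and 2 for mural markers, when 11.4% and 3.62% of all genes passed in either direction. Of 6 Leydig cell markers 1, Lhcgr, was past it in each mutant testis group, with sums of 1691 and 1772 CPM in WT and 714 to 1249 in the mutants, and without the Ocn-/- testis 3 Insl3 also was in Ocn-/- testes. Of 6 Sertoli cell markers 1, Sox9, was past it upward in each mutant testis group, and of 2 adipocyte markers tested 1, Fabp4, downward. Of 5 erythroid genes tested, 3 (Hba-a1, Hba-a2 and Hbb-bs, the first pair near-identical copies) were past it downward in Ocn+/- forebrain, or 2 without WT 3, and 0 in Ocn-/- forebrain, with sums of 522 to 719 CPM in WT, 356 to 407 in Ocn+/- and 486 to 599 in Ocn-/- forebrain. In testes their sums of 2597 and 6861 CPM in WT and 865 to 3941 in the mutants overlapped, and the median log2 fold changes of -1.03 and -1.41 came with no gene past the threshold. In both mutant forebrains Gfap of 7 glial and Cx3cr1 of 5 microglial markers were past it upward and Dcx of 7 neuronal markers downward, of which Cx3cr1 alone passed without WT 3. Other single markers past it were Pdgfra downward and Cx3cr1 upward in Ocn+/- testes, Aldh1l1 downward and Zbtb20 upward in Ocn-/- testes, and Slc17a7 upward in Ocn+/- forebrain, the last not without WT 3. Of 12 genes induced by low oxygen, 8 and 9 were past it downward in testes, and of the 11 tested in forebrain 7 and 6 were, or 6 and 4 without the forebrain WT 3. Their summed level was 1529.9 and 1895 CPM in WT and 647 to 725 in mutant testes, and 995 to 1189 against 739 to 812 CPM in forebrain. The part that these shifts have in the values of Adm, Edn1, Calcrl or the other members was not tested, and in tissue RNA fewer cells of a type and less RNA per cell cannot be told apart.

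As a description of pattern alone, the genes most like each member across libraries were named by Pearson's r of log2 CPM within the organ where the member is higher, which is testes with 8 libraries for all but Ednrb. For Edn1 these were P2ry6 (r = 0.972), Tango6 (0.964) and Rab3ip (0.963), and for Edn3 Ctsc (0.994), Svep1 (0.99) and Pappa2 (0.989). Ednra was closest to Prorp (0.98), Vhl (0.972) and Nf1 (0.968), and Ednrb, over 9 forebrains, to Spock3 (0.939), Camk2d (0.938) and Alcam (0.936). For Adm they were Zfp811, Nectin3 and Prrg4 (0.975 each), for Calcrl Chsy3 (0.979), Gypc (0.972) and Tal1 (0.971), and for Ramp2 Gm12174 (0.978), Stard7 (0.977) and Tcaf2 (0.971). Among the genes closest to Nppc were Pdk1 (0.939), which is also in the low-oxygen list, and AV099323 (0.928). Npr2 was closest to Josd2 (0.969), Sh3bgrl3 and Slit3 (0.961 each), and Npr3 to Nifk (0.99), Snap23 (0.989) and Pdia4 (0.985). The search ran over all 16361 genes tested in testes or 16076 in forebrain with few libraries, and the points share genotype, depth and scaling. No member was among the 3 genes closest to another member.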

How the data were processed

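Reads were trimmed by the authors with Trim Galore 0.6.6, aligned to GRCm39 with STAR 2.7.8a and counted per gene with RSEM 1.3.3 (submitters' processing notes). The authors deposited RSEM's expected counts, not normalized, in 17 library columns, all of which were used. The annotation release and strandedness are not given in the sources used here. Expected counts were rounded. Each organ was fitted with its 3 genotypes in edgeR 4.0.16 (R 4.3.3, TMM, filterByExpr by genotype, robust quasi-likelihood test, two-sided, no covariates), which left 16361 genes in testes and 16076 in forebrain, and a joint fit of 17800 genes gave the differences between organs. Adjustment was by Benjamini-Hochberg over all genes fitted, at 0.05. Intervals (95%) are the estimate ± 1.96 SE. Between genes, joint-fit CPM was divided by the length of the Ensembl canonical transcript. Names and positions come from GENCODE on GRCm39, which matched 54749 identifiers. Fits were tested on simulated data. Members, gene lists and tests were chosen with earlier results of these data known. Named are the 10 members, related genes past the threshold against WT, and for each member the 3 genes with the highest correlation, 1 of which is not reported here. Alternatives were other scalings, DESeq2 1.42.0, other filters, the likelihood ratio test, 2-genotype fits, a replicate block and each library left out. The lists in forebrain without WT 3 and in testes without Ocn-/- 3 and the organ comparison of WT libraries alone were added after seeing the data.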

Additional observations from a re-analysis of the deposited data

Results flagged for a closer look

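The change of Edn1 between mutant and WT mice differed between testes and forebrain by 2.49 on the log2 scale (SE 0.54), which drew attention because the difference itself passed the threshold of the joint fit. The gene was chosen with its changes from WT known, so this value is a description. In testes 5 of the 6 mutant libraries were above the higher WT value of 11.9 CPM, and in forebrain all 6 were below the lowest WT value of 2.29 CPM. The value was lowest, 2.08, without the forebrain WT 3, which held the highest Edn1 level of all forebrains (7.12 CPM) and the lowest total count, and the difference was then not past the threshold. Groups of 2 or 3 libraries are too small for a test of single outlying libraries, and none was run.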

How the results depend on the processing

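Of 1561 log2 fold changes of members and Mme under the alternatives, 1499 kept their sign, and none of the 62 that did not was past the threshold there or in the fit reported. Calls were lost in 40 of them and gained in 2. Of the lost calls, 30 were members against WT or their difference between organs, most without single libraries, as given beside each gene, and Npr3 in Ocn+/- (-0.54) and Edn3 in Ocn-/- testes (-0.92) under the replicate block. The other 10 were Mme in Ocn+/- testes under the replicate block (-0.46) and without 4 single libraries, and, between organs, Ramp2 without 2 and Nppc without 1 single library and Edn1 and Ramp2 in WT libraries alone. Members past the threshold in Ocn+/- testes numbered 2, and 1 with library size alone (Nppc), with at least 10 counts in every library (Npr3, Nppc being left out by that filter) and with the replicate block (Nppc), and 0 to 2 when single libraries were left out. In Ocn-/- testes they numbered 1, and 0 with the replicate block and with only the 2 genotypes compared, and 0 to 3 without single libraries. In forebrain the 1 member past the threshold in each mutant genotype, and the 1 of the difference between organs, became 0 with at least 10 counts in every library, since that filter leaves Edn1 out, and ran from 0 to 1 without single libraries. Between mutant genotypes the count was 0 under every alternative run in both organs, and between organs it was 7 to 10, with 9 to 10 when single libraries were left out. Of the related genes in Ocn+/- testes, 1 past the threshold became 2 (Mme and Furin) with upper quartile scaling, library size alone, DESeq2, at least 10 counts and the likelihood ratio test, 3 (with Npr1) with no filter and with 2 genotypes, 0 with the replicate block, and 0 to 3 without single libraries. In Ocn-/- testes 0 became 1 (Npr1) with no filter and 0 to 1 without single libraries. In Ocn+/- forebrain 0 became 1 (Ackr3) with no filter and stayed 0 without single libraries. In Ocn-/- forebrain 0 became 1 (Ece2) with DESeq2 and the likelihood ratio test, 2 (Ece2 and Ackr3) with no filter, and 0 to 1 without single libraries. Where no construction of the alternative shows it, the cause was not tested.

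Without 1 of the 2 WT testes, the remaining one is assumed to vary like the other groups. The labels do not say whether the replicate numbers pair the samples. In their deviations from the group mean, same-numbered libraries of different genotypes correlated at -0.0937 to 0.0871 in testes and -0.0366 to 0.146 in forebrain. Differently numbered ones correlated at -0.119 to 0.119 and -0.197 to 0.105. With groups of 2 or 3 libraries these values cannot decide whether samples were paired. The replicate block moved the genes past the threshold from 1350 to 966 and from 922 to 836 in testes and from 625 to 768 and from 780 to 1140 in forebrain. Depth limits Nppc and Adm, with 6 to 46 and 8 to 52 counts per library, and Edn1 in forebrain, with 6 to 40.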

Other observations

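Downstream of the natriuretic peptide receptors, 2 genes are described here that were chosen after their values were seen. Prkg2, a protein kinase activated by cyclic GMP, was at 4.16 and 5.57 CPM in WT testes and at 0.825 to 3.91 CPM in all 6 mutant testes, while in forebrain it was at 1.68 to 1.96 CPM in WT and 2.33 to 3.01 CPM in the mutants. Its 6 to 45 counts per library are few. All mutants lay below WT in testes, an order that 13.6% of all genes showed, and above WT in forebrain, as 6.85% did, and the difference of its changes between organs was -1.69 (SE 0.56), not past the threshold. Npr1, the guanylyl cyclase receptor of the cardiac natriuretic peptides, was at 84.4 and 94.5 CPM in WT testes, 109.7 to 138 in Ocn+/- and 102 to 172 in Ocn-/- testes, an order of all mutants above WT that 12.5% of all genes showed. Its log2 fold changes of 0.45 (SE 0.20) in Ocn+/- and 0.52 (SE 0.20) in Ocn-/- testes were not past the threshold. The ligands of this receptor were at or near 0, with 0 to 5 counts of Nppa in any library.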
